A study of Mus musculus with 8 samples.

Results

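NF-kB is a family of transcription factors that works as dimers of the Rel-type subunits, and IkB proteins bind these dimers and decide where they act. The 10 genes described here are the 5 subunit genes Rela, Nfkb1, Nfkb2, Rel and Relb, the 3 classical IkB genes Nfkbia, Nfkbib and Nfkbie, and the 2 genes of nuclear IkB-type proteins, Nfkbiz and Bcl3. They were chosen with earlier results of these data known. The choice was by name, as the probes whose gene name in the array files is 1 of these symbols. This gave 21 of the 56605 probes and all 10 listed genes, among 20076 features that could be tested. Of the 21 probes, 19 were well above background on all 8 arrays, 1 probe of Nfkbiz was so on 2 arrays, and 1 probe of Bcl3 on none. Each gene is represented by its probe with the highest mean, and for all 10 genes that probe was well above background on all 8 arrays.

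The samples were RAW264.7 cells, a mouse macrophage line grown in culture, measured on 8 one-colour whole-genome oligonucleotide arrays with 1 array per condition. In the melatonin arm, cells were given melatonin, a hormone of the pineal gland, at 1 mM for 1 h. They then received no LPS, or LPS at 100 ng/ml for 1, 3 or 5 h. The arm without melatonin had the same 4 LPS conditions. LPS, a lipid and sugar molecule of the outer coat of Gram-negative bacteria, is sensed by Toll-like receptor 4. With no repeat of any condition, an LPS time is 2 arrays, 1 from each arm, and the melatonin difference is 4 arrays against 4. All 8 arrays lay on 1 slide, where each LPS time had its own column and each arm its own row. LPS therefore cannot be told apart from slide column or from hours in culture, and melatonin cannot be told apart from slide row.

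Groups follow the sample titles. The treatment field disagrees with them in the melatonin arm: it gives 3 of the 4 samples an LPS time later than the title does, and gives the sample titled 5 h no treatment. Nfkbia, whose transcript is a standard readout of LPS exposure, had a level of 4.84 on the array titled melatonin 0 h, 7.46 at 1 h, 7.86 at 3 h and 7.97 at 5 h. Without melatonin it had 5.03 at 0 h, 7.77 at 1 h, 8.27 at 3 h and 8.33 at 5 h. On this gene the array titled melatonin 0 h stood beside the untreated culture, and the array titled melatonin 5 h stood with the LPS-treated ones. Nfkbia is itself 1 of the genes described here, so its LPS change below is not independent of this check. A level here is the log2 processed signal minus the log2 75th percentile of its array.

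The 75th percentile of the signal ranged from 659.1 to 846.1, 46.96% to 52.98% of probes passed the scanner software's test for a signal well above background, and no spot was saturated. Of 9 macrophage markers with a probe, 8 were above background on all 8 arrays and Mrc1 was on none. None of the 4 B cell, 3 fibroblast, 3 epithelial and 2 dendritic cell markers was above background on all 8 arrays. Among 3 T cell markers, Cd3e (levels of 0.26 to 0.71) and Cd3d (-3.64 to -1.71) were, and their part in the results below was not tested. In bulk RNA such as this, fewer cells of a kind and less RNA per cell cannot be told apart.

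In a resting macrophage, classical IkB proteins hold NF-kB dimers in the cytoplasm. LPS activates the IkB kinase complex, which marks the IkB proteins for destruction, and the freed dimers enter the nucleus and switch on inflammatory genes. Among the genes switched on are those of subunits and of IkB proteins themselves, so that new IkB protein returns the dimers to the cytoplasm. Nfkbiz and Bcl3 encode proteins that are found in the nucleus, where they bind dimers on DNA and can raise or lower transcription.

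Because several of these genes are known targets of NF-kB itself, their promoters were searched for its binding motif. RefSeq promoter windows of build GRCm38.p6, from 250 bases before to 50 bases after a start site, were at hand for 7 of the 10 genes. Nfkb1, Relb and Nfkbiz had no entry. A narrow form of the motif, GGGNNTTNCC on either strand, was in a window of 4 of the 7 genes (Nfkb2, Rel, Nfkbia and Bcl3) and was not found in those of Rela, Nfkbib and Nfkbie. Among all genes with a window 5.48% had it, and of all 32851 windows 4.79% did. A loose form, GGGNNNNNCC, which includes every narrow match, was in 6 of the 7 genes (all but Nfkbib), against 53.5% of genes and 50.8% of windows. A match is a run of letters and not a shown binding site. The genes and the motif were chosen with earlier results of these data known, so these shares are no test of enrichment.

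The windows of the 4 genes with a narrow match, and that of Nfkbib with neither form, are shown so that the matches can be seen in place, with narrow matches in capitals.
Nfkb2 promoter, chr19:46304487-46304786, plus strand: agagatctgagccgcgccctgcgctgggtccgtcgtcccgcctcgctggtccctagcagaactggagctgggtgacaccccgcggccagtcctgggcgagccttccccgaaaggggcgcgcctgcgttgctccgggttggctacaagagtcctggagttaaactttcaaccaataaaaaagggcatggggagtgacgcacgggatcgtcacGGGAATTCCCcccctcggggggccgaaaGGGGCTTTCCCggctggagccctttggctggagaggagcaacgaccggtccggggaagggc
Rel promoter, chr11:23770920-23771219, minus strand: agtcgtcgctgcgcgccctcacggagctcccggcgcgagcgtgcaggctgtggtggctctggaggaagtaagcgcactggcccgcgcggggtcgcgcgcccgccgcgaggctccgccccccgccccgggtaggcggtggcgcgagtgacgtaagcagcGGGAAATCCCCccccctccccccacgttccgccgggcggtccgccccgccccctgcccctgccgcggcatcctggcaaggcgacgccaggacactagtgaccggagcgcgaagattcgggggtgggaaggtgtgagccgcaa
Nfkbia promoter, chr12:55492598-55492897, minus strand: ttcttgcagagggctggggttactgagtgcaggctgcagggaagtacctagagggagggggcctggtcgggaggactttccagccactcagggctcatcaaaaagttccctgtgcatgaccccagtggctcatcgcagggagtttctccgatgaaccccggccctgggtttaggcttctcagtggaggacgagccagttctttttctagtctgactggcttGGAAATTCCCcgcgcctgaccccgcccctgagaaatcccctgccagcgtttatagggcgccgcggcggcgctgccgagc
Bcl3 promoter, chr7:19822706-19823005, minus strand: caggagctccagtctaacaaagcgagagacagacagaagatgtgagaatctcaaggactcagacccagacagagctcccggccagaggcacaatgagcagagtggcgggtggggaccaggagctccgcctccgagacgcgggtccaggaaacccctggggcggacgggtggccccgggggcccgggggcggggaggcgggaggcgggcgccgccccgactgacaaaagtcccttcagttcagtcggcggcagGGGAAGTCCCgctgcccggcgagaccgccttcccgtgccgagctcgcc
Nfkbib promoter, chr7:28766595-28766894, minus strand: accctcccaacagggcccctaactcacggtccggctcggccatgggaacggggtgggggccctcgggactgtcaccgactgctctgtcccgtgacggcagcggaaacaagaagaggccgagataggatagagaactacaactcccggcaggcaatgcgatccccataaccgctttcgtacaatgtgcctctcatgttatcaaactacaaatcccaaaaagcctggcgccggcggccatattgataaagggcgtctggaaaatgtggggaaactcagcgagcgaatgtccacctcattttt
The Nfkb2 window holds 2 marked stretches: GGGAATTCCC, which reads the same on both strands, at -39 to -30 from the start site, and overlapping matches from -11 to -1. The Nfkbia match lies at -29 to -20 and the pair of overlapping Rel matches at -92 to -82, while that of Bcl3 lies just inside the transcript, at 3 to 12. A further start site of Nfkb2 has GGGACTTTCC at 11 to 20.

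The probes of Nfkbia and Nfkbib are shown as examples of what was hybridised, since both cross a splice junction: each has a length of 60 bases but spans 496 and 682 bases of the genome. Probe coordinates are those of the array files, on mouse build mm9.
Nfkbia probe, chr12:56590945-56591440, minus strand: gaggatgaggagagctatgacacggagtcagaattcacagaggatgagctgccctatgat
Nfkbib probe, chr7:29544167-29544848, minus strand: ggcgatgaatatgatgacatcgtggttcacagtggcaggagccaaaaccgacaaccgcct
The remaining members' probes lie at chr19:5648070-5648129 for Rela, chr3:135247898-135247958 for Nfkb1, chr19:46386440-46386499 for Nfkb2, chr11:23637051-23637110 for Rel and chr7:20191722-20191781 for Relb. Those of Nfkbie, Nfkbiz and Bcl3 lie at chr17:45700000-45700059, chr16:55812091-55812150 and chr7:20393826-20393885. Each of these 8 covers 60 or 61 bases of the genome. An annotation of mm9 was not used here, so exon and UTR positions are not given.

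After 1 h of LPS all 10 genes had a change above 0 on their main probes, and 9 of them were called raised. By 3 h all 10 were called raised. Their median change was 1.32 log2 at 1 h, 2.67 at 3 h and 2.79 at 5 h, where the median of all 20076 features was -0.01, 0.06 and 0.08. Since the genes were chosen with earlier results of these data known, this contrast is a description and no test. Of all features, 1.96% were called at 1 h (1.67% rose and 0.284% fell), by limma with an adjusted p under 0.05. At 3 h 33.7% were called (18.6% rose and 15.1% fell) and at 5 h 44.2% (24.9% rose and 19.4% fell). Each change is the mean over both arms, and its p-value rests on how far the 2 arms disagree over the LPS times. With 1 array per condition, that spread mixes array noise, which may be technical, with any change of the melatonin difference over time. It does not measure the spread between repeat cultures. The count at 1 h depended on single arrays: 2 genes were called raised without the 1 h array of the arm lacking melatonin, 3 without that arm's 0 h array and 5 without its 5 h array. It was also 5 with no filter on dim probes and 4 with no intensity trend in the variance. Calls over all features fell too, from 393 to 137 with no filter and to 159 with no intensity trend. They also fell in each of the fits without 1 array named here, so the drop was not particular to these genes.

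**Figure D1:**
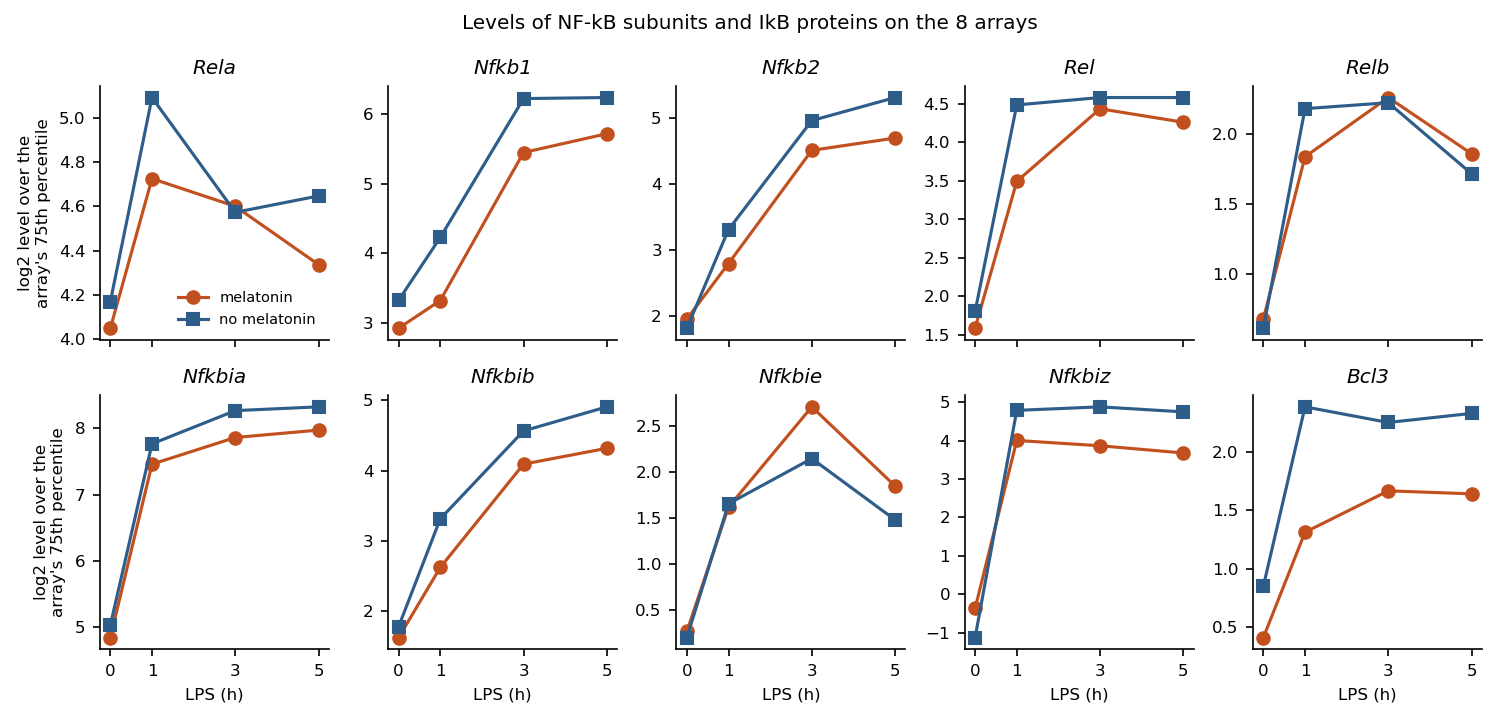
Levels of the 10 genes (log2 processed signal over the array's 75th percentile, vertical axes, each with its own scale) against hours of LPS, with circles for the melatonin arm and squares for the arm without melatonin, 1 array per point. Nfkbiz runs from -0.37 to 4.0 with melatonin and from -1.13 to 4.88 without it, while Rela stays between 4.05 and 5.09 on all 8 arrays.

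Rela encodes the subunit that carries most of the transcription-activating capacity of classical NF-kB dimers, and it had the smallest change of the 10 genes at 3 and 5 h. Its levels were 4.05, 4.72, 4.6 and 4.34 at 0, 1, 3 and 5 h with melatonin, and 4.17, 5.09, 4.57 and 4.65 without it. In both arms the highest level was at 1 h, and the 0 h array was the lowest. The rise was 0.80 log2 at 1 h (SE 0.11, adjusted p = 0.0291), 0.48 at 3 h (adjusted p = 0.0202) and 0.38 at 5 h (adjusted p = 0.0314). The 1 h call was lost in 8 of 14 alternatives, with an adjusted p up to 0.216. With quantile normalization the changes at 3 and 5 h were 0.28 and 0.13, that at 5 h with an adjusted p of 0.405. A second Rela probe, 2707 bases away, rose by 0.84, 0.53 and 0.47.

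Nfkb1 and Nfkb2 encode long precursors that are processed into DNA-binding subunits, and whose uncut forms hold back other subunits in the manner of an IkB. Nfkb1 was at 2.92, 3.32, 5.45 and 5.72 at 0, 1, 3 and 5 h with melatonin, and at 3.33, 4.23, 6.22 and 6.24 without it. Its levels at 3 and 5 h lay above those at 0 and 1 h in both arms. The change was 0.65 at 1 h (SE 0.13), which missed the threshold (adjusted p = 0.0805), and then 2.71 at 3 h (adjusted p = 0.000266) and 2.85 at 5 h (adjusted p = 0.000178).

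Nfkb2 followed a similar course. Its levels were 1.96, 2.80, 4.52 and 4.70 with melatonin at 0, 1, 3 and 5 h, and 1.82, 3.32, 4.97 and 5.31 without it. Each later array stood higher than the one before it in both arms. It rose by 1.17 at 1 h (SE 0.18, adjusted p = 0.0439), 2.85 at 3 h (adjusted p = 0.000609) and 3.12 at 5 h (adjusted p = 0.00034), an 8.68-fold change at the last time. The 1 h call was lost in 9 of 14 alternatives, with an adjusted p of 0.303 without the 1 h array lacking melatonin (change 1.06). Its second probe, 294 bases away, rose by 1.25, 2.93 and 3.20.

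Rel encodes c-Rel, a subunit abundant in blood cells that is needed for several macrophage cytokines. With melatonin it was at 1.59 at 0 h, 3.49 at 1 h, 4.44 at 3 h and 4.26 at 5 h. Without melatonin it was at 1.80, 4.49, 4.58 and 4.58. The arm without melatonin was thus near its plateau at 1 h, with 96.5% of its highest change, where the melatonin arm had 66.9% of its own. The rise was 2.29 at 1 h (SE 0.21, adjusted p = 0.00812), 2.81 at 3 h and 2.73 at 5 h (adjusted p = 0.000844 and 0.00058). Without the 0 h array lacking melatonin the 1 h change was 2.16 and missed the threshold (adjusted p = 0.0543).

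Relb encodes the subunit that pairs mainly with the product of Nfkb2 in the alternative NF-kB pathway. Its levels were 0.67, 1.84, 2.27 and 1.86 with melatonin, and 0.61, 2.18, 2.23 and 1.72 without it. Both arms were highest at 3 h and lay lower again at 5 h. The rise was 1.37 at 1 h (SE 0.14, adjusted p = 0.0105), 1.61 at 3 h (adjusted p = 0.00121) and 1.15 at 5 h (adjusted p = 0.00198). Its 1 h call was lost without the 0 h array or the 1 h array lacking melatonin, where the change was 1.31 and 1.16.

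Nfkbia encodes IkB-alpha, the inhibitor that is destroyed and remade fastest, and it had the smallest error of the 10 genes. The levels given above lay in the same order in both arms, lowest at 0 h and highest at 5 h. By 1 h it had 83.6% of its highest change with melatonin and 83% without. The 3 h and 5 h changes were 3.13 and 3.22 (SE 0.06, adjusted p = 1.93e-05 and 1.32e-05), an increase of 9.29-fold at 5 h.

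Nfkbib encodes IkB-beta, a slower inhibitor of the same dimers. Its levels were 1.63, 2.62, 4.09 and 4.32 with melatonin, and 1.78, 3.31, 4.56 and 4.91 without it. It had 37% of its highest change at 1 h with melatonin and 49% without, so most of its rise came later in both arms. It rose by 1.26 at 1 h (SE 0.13, adjusted p = 0.0138), 2.62 at 3 h (adjusted p = 0.000348) and 2.91 at 5 h (adjusted p = 0.000183), and its second probe by 1.25, 2.67 and 3.08. In 4 of 14 alternatives the 1 h call was lost, with an adjusted p up to 0.118 without the 1 h array lacking melatonin (change 1.12).

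Nfkbie encodes IkB-epsilon, an inhibitor that acts on Rela and c-Rel dimers. It was at 0.26, 1.62, 2.71 and 1.85 with melatonin, and at 0.20, 1.65, 2.15 and 1.48 without it. The highest level was at 3 h in both arms, higher with melatonin. It rose by 1.41 at 1 h (SE 0.16, adjusted p = 0.017), 2.20 at 3 h (adjusted p = 0.000824) and 1.43 at 5 h (adjusted p = 0.00167). Its 1 h call was lost in 7 of 14 alternatives, with an adjusted p up to 0.131 without the 1 h array lacking melatonin (change 1.22).

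Nfkbiz encodes IkB-zeta, a nuclear protein needed for a later set of LPS-induced genes such as Il6, and it had the largest change of the 10 genes at every LPS time. Its levels were -0.37, 4.0, 3.86 and 3.68 with melatonin, and -1.13, 4.79, 4.88 and 4.75 without it. Every array with LPS lay above both arrays without, and the LPS-treated arrays of the melatonin arm lay below those of the other arm. At 1 h 0.0548% of features had a larger change. The change of 5.12 at 3 h (SE 0.44, adjusted p = 0.00128) and 4.96 at 5 h (adjusted p = 0.000867) came to 34.8-fold and 31.1-fold. Without the 1 h array lacking melatonin, the 1 h change was 4.97 and missed the threshold (adjusted p = 0.066).

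Bcl3 encodes a nuclear protein that binds DNA-bound homodimers of the Nfkb1 and Nfkb2 products. It was at 0.41, 1.31, 1.67 and 1.64 with melatonin, and at 0.85, 2.39, 2.25 and 2.33 without it. The arm without melatonin was highest at 1 h and the melatonin arm at 3 h. It rose by 1.22 at 1 h (SE 0.16, adjusted p = 0.0262), 1.33 at 3 h (adjusted p = 0.00308) and 1.36 at 5 h (adjusted p = 0.00191). The call at 1 h was lost in 8 of 14 alternatives, with an adjusted p up to 0.146 without the 0 h array lacking melatonin (change 1.05).

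**Figure D2:**
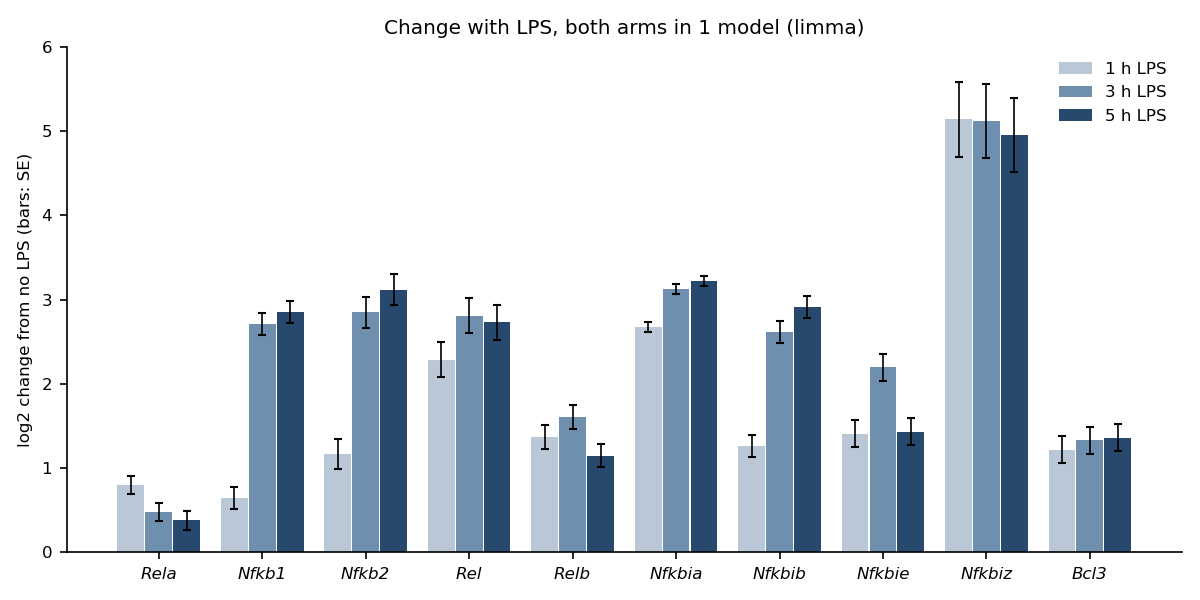
Change of each gene from no LPS (log2, vertical axis) after 1, 3 and 5 h, as fitted by limma over both arms, with bars from 0 and error bars of 1 SE. Nfkbiz and Bcl3 stand near their full height at 1 h, whereas Nfkb1, with 0.65 at 1 h against 2.71 at 3 h, Nfkb2 and Nfkbib gain most after it.

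Over the step from 1 h to 3 h, the genes were set against their own 1 h levels. Of the 10 genes, 5 rose and none fell, where 15.2% of all features were called, 8.42% up and 6.83% down. The rises were 2.06 for Nfkb1 (SE 0.13, adjusted p = 0.00182), 1.68 for Nfkb2 (SE 0.18, adjusted p = 0.00659), 1.36 for Nfkbib (SE 0.13, adjusted p = 0.0052), 0.79 for Nfkbie (SE 0.16, adjusted p = 0.0287) and 0.45 for Nfkbia (SE 0.06, adjusted p = 0.0093). The other 5 did not pass: Rel stood at 0.52 (adjusted p = 0.144), Relb at 0.23, Bcl3 at 0.11, Nfkbiz at -0.02 and Rela at -0.32 (adjusted p = 0.0972). A call for some genes and not for others does not show that they differed, which was not tested, and Rel had a larger estimate than Nfkbia. Leaving out any 1 array lowered the number of all features called over this step. Member calls lost in that way are thus not particular to these genes. Without the 3 h array lacking melatonin only Nfkb1 was called, and without the melatonin 1 h array 2 genes were. Without the 1 h array lacking melatonin Rel was called (0.90, adjusted p = 0.041), while Nfkbia (0.45, adjusted p = 0.0828) and Nfkbie (0.98, adjusted p = 0.0884) were not.

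From 3 h to 5 h no member passed the threshold, in a comparison where 0.0946% of features did, 0.0349% up and 0.0598% down. An unadjusted p under 0.05 was reached by 2 members and 2937 features. These members were Nfkbie, with -0.76 (SE 0.16, adjusted p = 0.139), and Relb, with -0.46 (SE 0.14, adjusted p = 0.233). Both lay lower at 5 h than at 3 h in each arm.

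Likeness across the 8 arrays was measured as the root mean square difference between the log2 values of 2 genes, each centred on its own mean. The arrays share the LPS course, so many features resemble each member, and these distances are a description. Nfkb2 and Nfkbib differed by 0.16 log2, the smallest distance between any 2 members, and both had the kinase gene Stk40 (0.15 from Nfkb2 and 0.12 from Nfkbib) and Osgin2 (0.15 and 0.17) among their 3 nearest features. Rel and Nfkbia were each among the other's nearest 3, at 0.26. The nearest named genes were Suv420h1 for Rela (0.10), Cpd for Nfkb1 (0.16), Adra2b for Relb (0.16), Noct for Nfkbie (0.14), Itga5 for Nfkbia (0.24) and Pak3 for Bcl3 (0.18). Nfkbiz had the largest distance to its nearest feature, Tnf, the early macrophage cytokine, at 0.42, with Dusp5 and Phlda1 after it.

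Probes of the same gene agreed for Rela, Nfkb2, Rel and Nfkbib, and disagreed for Nfkb1 and Relb. For Nfkb1, the probe for ENSMUST00000138602 at chr3:135275144-135275203 lies 27246 bases from the gene's main probe, upstream on this minus-strand gene. Its levels were -0.60, 1.5, 2.49 and 2.09 with melatonin at 0, 1, 3 and 5 h, and -0.38, 2.51, 2.91 and 2.65 without it. On this probe the 1 h array without melatonin was already close to the later ones, while that with melatonin lay below both. From 1 h to 3 h the probe gained 0.70 (SE 0.18, limma adjusted p = 0.0561 in a fit of all probes). It rose by 2.49 at 1 h (SE 0.18, adjusted p = 0.00343 in a fit of all probes), where the 2 probes nearer the 3′ end had 0.65 (SE 0.13, adjusted p = 0.0654) and 0.60 (SE 0.14, adjusted p = 0.099). At 5 h the 3 probes had 2.85, 2.85 and 2.89. The difference between probes at 1 h was seen in both arms and was not tested.

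For Relb, a probe for ENSMUST00000148040 at chr7:20203058-20203117 lies 11336 bases from the main probe, also upstream. It was at -2.81, -2.50, -2.61 and -2.39 with melatonin, and at -2.24, -2.17, -2.35 and -1.88 without it, above background on all 8 arrays. It did not pass at any LPS time (0.20, 0.05 and 0.39, adjusted p = 0.606, 0.827 and 0.0712), while the probe 217 bases from the main one rose by 1.42, 1.76 and 1.19. The distant probe was called lower with melatonin (-0.42, SE 0.10, limma adjusted p = 0.0248 in the fit of all probes). On the main probe the melatonin difference was -0.02 and on the near one -0.05, and neither passed. For Nfkbiz, a second probe rose by 4.38, 4.11 and 4.01 against 5.14, 5.12 and 4.96 on the main one. The third Nfkbiz probe was well above background only without melatonin at 3 and 5 h, and its spot without melatonin at 1 h was left out as an outlier.

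**Figure D3:**
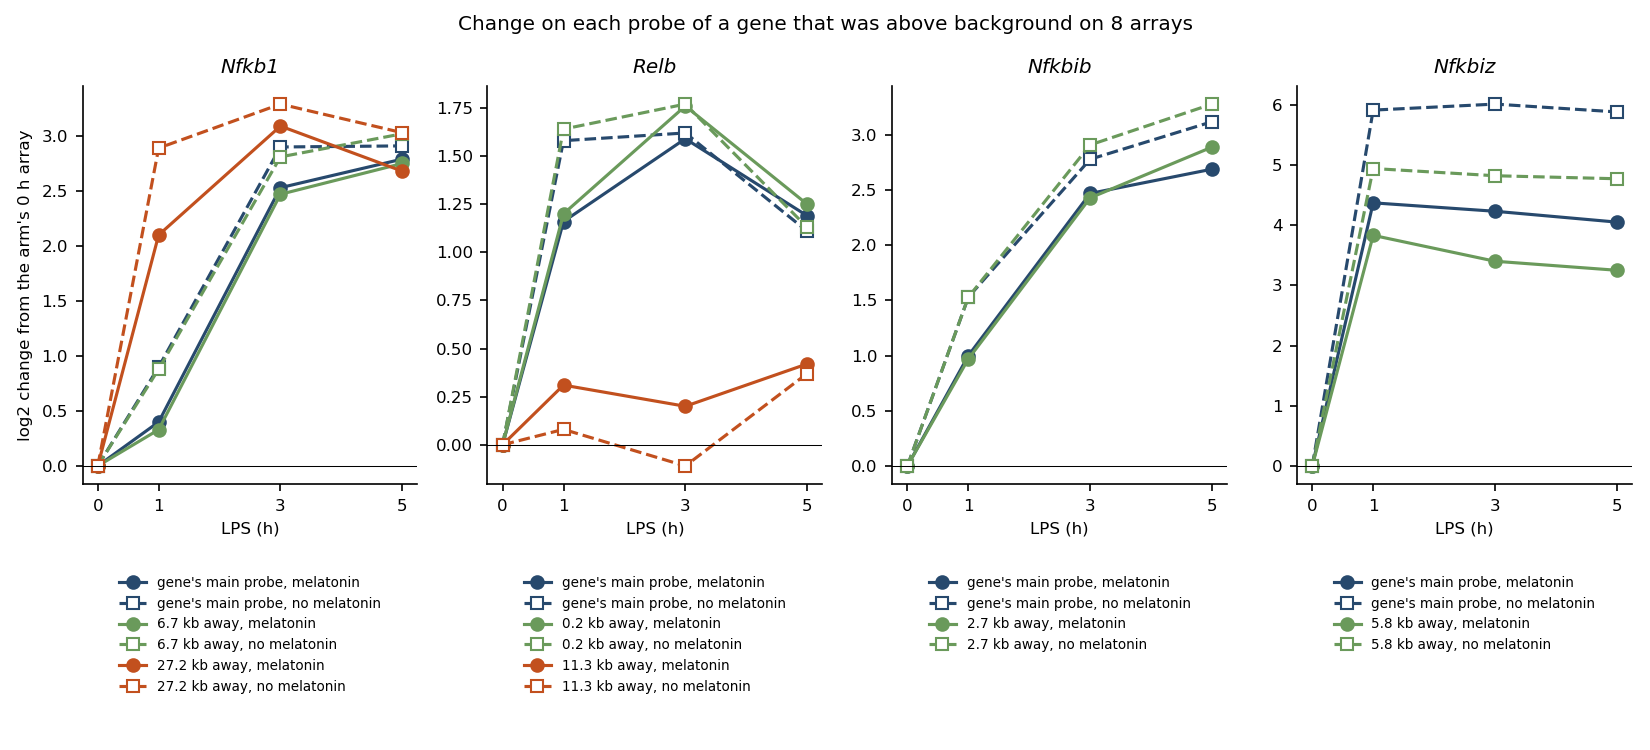
Change from the 0 h array of the same arm (log2, vertical axis) against hours of LPS for each probe that was above background on all 8 arrays, in Nfkb1, Relb, Nfkbib and Nfkbiz; circles and solid lines are the melatonin arm, open squares and dashed lines the arm without it, and colours mark distance from the gene's main probe. At 1 h the distant Nfkb1 probe is at 2.10 with melatonin and 2.89 without, above the main probe's 0.40 and 0.90, and the distant Relb probe stays between -0.11 and 0.42.

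Melatonin lowered 4 of the 10 genes and raised none, averaged over the 4 LPS times. Of all features 40.6% were called, 25.3% lower with melatonin and 15.3% higher, so a share of this size is no result about these genes in particular. Their median difference was -0.39 log2, where that of all features was -0.10. Bcl3 was lower by 0.70 (log2 difference -0.70, SE 0.11, adjusted p = 0.00763), and Nfkb1 differed by -0.65 (SE 0.09, adjusted p = 0.00553). Nfkbib differed by -0.48 (SE 0.10, adjusted p = 0.0134) and Nfkbia by -0.31 (SE 0.04, adjusted p = 0.00471). Each of these 4 genes, and Rel, was lower with melatonin at all 4 LPS times.

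Calls for Bcl3 and Nfkb1 held under all alternatives run. That of Nfkbia was lost with quantile normalization and with the deposited log2 table (-0.13 in both, adjusted p up to 0.0587). That of Nfkbib was lost when any of the 6 LPS-treated arrays was left out, with values of -0.41 to -0.48. The other 6 genes did not pass: Nfkbiz was at -0.53 (SE 0.31), Rel at -0.42 (adjusted p = 0.0648), Nfkb2 at -0.36 (adjusted p = 0.0702), Rela at -0.19, Relb at -0.02 and Nfkbie at 0.24 (adjusted p = 0.135). With quantile normalization Rela (0.03) and Relb (0.01) lay above 0. Without either 0 h array Nfkb2 (-0.53) and Nfkbiz (-0.96) passed.

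By time, the differences were largest at 1 h for several genes, although each is 1 array against 1 and has no test. At 0 h 6 of the 10 genes were lower with melatonin, at 1 h all 10, at 3 h 7 and at 5 h 8, where 59%, 58.4%, 58% and 57.9% of all features were. Members lower with melatonin by more than 0.5 log2 numbered 0, 6, 3 and 5, against 11.5%, 13.3%, 17.2% and 16.8% of features. At 1 h Bcl3 differed by -1.08, Rel by -0.99 and Nfkb1 by -0.91. Nfkbie was the exception among the inhibitors, with 0.56 at 3 h and 0.37 at 5 h.

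**Figure D4:**
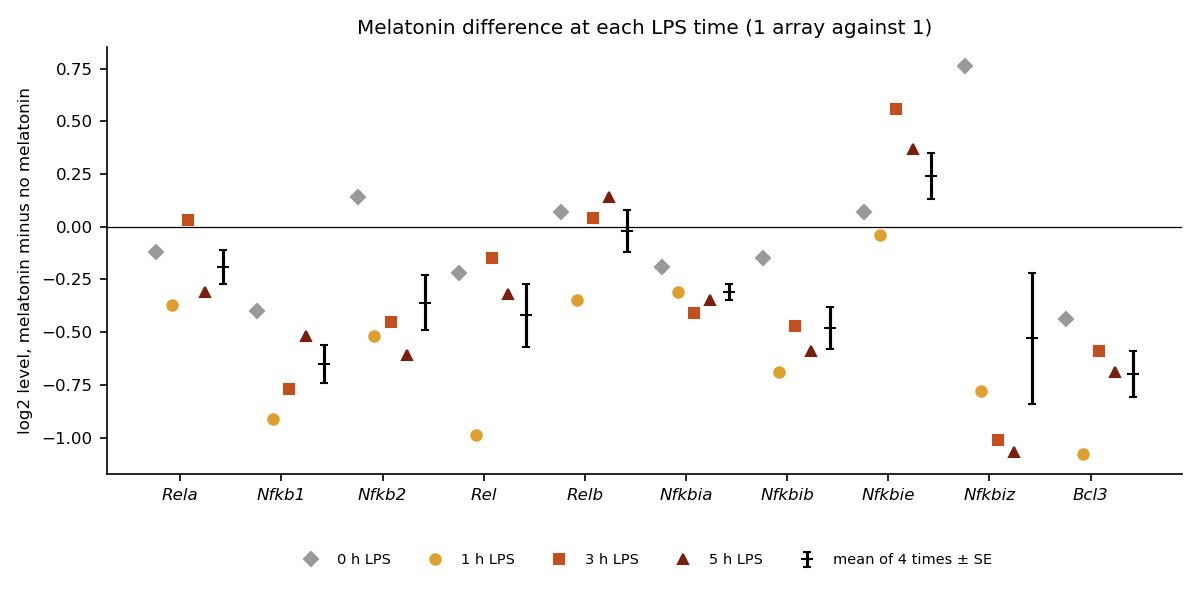
Difference in level between the melatonin array and the array without melatonin (log2, vertical axis) for each gene at each LPS time, 1 point per time, with the fitted mean of 4 times and 1 SE in black. Bcl3, Nfkb1, Nfkbib and Nfkbia lie below 0 at every time, and Nfkbiz lies at 0.76 without LPS but between -0.78 and -1.07 with it.

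Whether melatonin differed in its effect with and without LPS was tested as an interaction. No member and no feature passed (limma, 0% of 20076 features), with 3 members and 754 features at an unadjusted p under 0.05. Nfkbiz had the largest term, -1.72 (SE 0.17, limma adjusted p = 0.459), followed by Nfkb2 with -0.67 (adjusted p = 0.908) and Nfkbib with -0.43 (adjusted p = 0.908). In the levels, Nfkbiz stood 4.37, 4.23 and 4.05 above its own 0 h array with melatonin at 1, 3 and 5 h, and 5.91, 6.01 and 5.88 above it without. Its second probe gave -1.35 (adjusted p = 0.611). Without either 1 h array the Nfkbiz term was -1.80, in a fit where the 1 h array that remains adds nothing to the estimate of spread.

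Genes that act upstream of these proteins were read from lists. Of 11 genes of the IkB kinase complex and its upstream kinases, none passed at 1 h, and 6 rose and none fell at 3 h and at 5 h, where 18.6% and 24.9% of all features rose. Their median changes were 0.25, 0.51 and 0.38 log2. The largest rise was that of Ikbke, an IkB-kinase-related kinase of the interferon pathway, with 4.18 at 3 h (SE 0.29, adjusted p = 0.000735) and 4.24 at 5 h. With melatonin 5 of them were higher and 2 lower, beside 15.3% and 25.3% of all features, with Ikbkg, the regulatory subunit of the complex, at 0.38 (SE 0.07, adjusted p = 0.0109) and Ikbke at -0.83 (SE 0.20, adjusted p = 0.0242). Of 5 measured genes of the ligase that tags IkB for destruction, none passed at 1 h and 3 rose at 3 h and at 5 h, beside the same 18.6% and 24.9% of features. Fbxw11, which recognises phosphorylated IkB, had the largest of these rises, 0.96 at 3 h (SE 0.09, adjusted p = 0.00158). Btrc, its close relative, was higher with melatonin by 0.58 (SE 0.16, adjusted p = 0.0373).

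Of 3 further IkB-type genes 2 were measured. Nfkbid, which encodes the nuclear protein IkB-NS, rose by 2.71 at 1 h (SE 0.10, adjusted p = 0.000509) and changed by -1.46 from 1 h to 3 h (adjusted p = 0.0022). It was still raised by 1.29 at 5 h (adjusted p = 0.000598). Nfkbil1 gained 0.79 from 1 h to 3 h (adjusted p = 0.0334) and differed by -0.69 with melatonin (SE 0.12, adjusted p = 0.00921). Among nuclear partners and modifiers of NF-kB, Pdlim2, which promotes the breakdown of nuclear Rela, had the largest fall at 3 h, and it fell by 1.30 (SE 0.14, adjusted p = 0.0025).

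Genes that NF-kB is known to switch on, such as those of cytokines and chemokines, rose in nearly all cases. Of 24 listed target genes 21 were tested, of which 16 rose at 1 h and 20 at 3 h and at 5 h, with medians of 3.21, 5.31 and 6.07 log2. Melatonin lowered 19 of them and raised none, with a median of -0.91. The largest fall was that of Il6 (-2.64, SE 0.75, adjusted p = 0.0362). The Il6 probe was well above background on only 5 arrays, and those of Cxcl2, Csf3 and Csf2 on 6 each. The values of these genes, which enter the counts and medians, thus include arrays without a clear signal. The Il6 difference is a mean over LPS times and may describe no single time. Its interaction term was -4.06 (limma adjusted p = 0.459). The counts of raised and lowered targets stand beside the same backgrounds as those of the 10 genes, 25.3% of features lower with melatonin among them. The difference between the lists was not tested. The target list was chosen with earlier results of these data known.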

How the data were processed

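Total RNA of 8 RAW264.7 cultures was hybridised to 1-colour Agilent arrays. Per the file headers, the deposited intensity values are the processed signal column written by Agilent Feature Extraction, version 12.0.3.1 (design 074809, mm9), background-subtracted and detrended. Columns of 0 or 1 that mark outlying, saturated or clearly detected spots were, per the file headers, set by the scanner software. Uncorrected spot mean and local background intensity, as deposited, was used for 1 alternative. In the deposited log2 table every array has an identical distribution, the mark of quantile normalization. It correlates with the log2 processed signals at 0.9993 to 0.9998. The tool behind it was not given in the sources used here.

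The values compared are log2 processed signals minus each array's 75th percentile. Outlier spots and the 3671 controls among 62976 spots were removed, and repeated spots were averaged to 56605 probes. Symbols were updated through RefSeq accessions for 1535 of 32994 matched probes, and 10314 probes had no symbol. Probes well above background on at least 2 arrays entered (30417), each gene being read from its brightest probe by mean (20076 features). Precision is limited by the number of arrays.

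The software was limma 3.58.1 in R 4.3.3, with files read by the package data.table, version 1.17.8. An additive limma model of LPS time and melatonin (3 residual degrees of freedom, empirical Bayes with an intensity trend) gave the LPS changes, the steps and the melatonin difference. The interaction came from a model that adds a melatonin-by-any-LPS term and leaves 2 residual degrees of freedom. Tests were 2-sided, with Benjamini-Hochberg adjustment over all features and calls at an adjusted p under 0.05. The scripts were tested on simulated data with known changes. Alternatives were quantile normalization, normexp background correction (offset 50), the deposited log2 table, no filter, a filter on all 8 arrays, no intensity trend, each probe on its own, and leaving out each array in turn. All 10 members are named; a gene of another list is named with values only as its list's largest called rise or fall in a comparison, and for likeness the 3 nearest features were taken. The members, gene lists and motif were chosen with earlier results of these data known. Counts over the list of nuclear partners are not reported here.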

Additional observations from a re-analysis of the deposited data

How the results depend on the processing

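No paired analysis was possible because each condition has 1 array and no replicate numbers join samples; the arms are already compared within LPS time by the additive model. The results of the 10 members and the counts over all features were recomputed under 6 other settings and with each of the 8 arrays left out. The counts of other gene lists and the likeness distances were not. The call of Nfkbia at 1 h, the calls of every member except Rela at 3 h and 5 h, and the melatonin calls of Nfkb1 and Bcl3 held under all 14. At 1 h, 9 members were raised, against 5 with no filter, 4 with no intensity trend and 2 to 7 with 1 array left out. For the step from 1 h to 3 h, 5 were raised, against 3 with no intensity trend and 1 to 5 with 1 array left out, and Rela was called lowered, the 1 member so called, with quantile normalization and with the deposited table (-0.49 in both). The interaction lowered 0 to 1 members with 1 array left out, and could not be fitted without either 0 h array. No member result that was called turned its sign. Results that were not called did so: with quantile normalization and with the deposited table, the melatonin difference was 0.03 for Rela and 0.01 for Relb, and the interaction of Rela was 0.01 and 0. With 1 array left out, Relb ranged from -0.08 to 0.08 for melatonin and from -0.22 to 0.02 for the interaction. Nfkbiz ranged from -0.35 to 0.30 for the step from 1 h to 3 h and from -0.52 to 0.20 for that from 3 h to 5 h, and Bcl3 from -0.14 to 0.36 and from -0.05 to 0.10. For the step from 3 h to 5 h Rela ranged from -0.24 to 0.05 and Rel from -0.27 to 0.09. The cause of these changes was not tested.

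Over all features, quantile normalization changed the share of raised among called features to 42.9% at 3 h (55.2% with the 75th percentile), 43.7% at 5 h (56.2%), 42.9% from 1 h to 3 h (55.2%), 25.7% from 3 h to 5 h (36.8%) and 52.3% for melatonin (37.7%), while no median moved by over 0.08. With 1 array left out, between 95 and 320 features were called at 1 h (393 with all arrays), 2489 to 6816 at 3 h (6766), 4478 to 8375 at 5 h (8879), 325 to 2934 from 1 h to 3 h (3061), 1 to 21 from 3 h to 5 h (19), 4130 to 6769 for melatonin (8158) and 0 to 40 for the interaction (0). With no filter, 137 features were called at 1 h, 1664 from 1 h to 3 h and 2 from 3 h to 5 h. With no intensity trend they were 159, 1682 and 2, and with quantile normalization 35 were called from 3 h to 5 h and 33 with the deposited table.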
